A study of Homo sapiens with 2 samples.

Results

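DNA repair and p53 response genes were followed on 2 Affymetrix HG_133A microarrays of L-428, an established cell line from Hodgkin's lymphoma. The gene set was a list of 44 names, chosen by their role, of which 41 were among the 11963 genes with a probe set of their own on the array. One array held RNA from cells transfected with pcDNA6.2-GW/EmGFP-miR-neg, the control vector, and the other RNA from cells transfected with pcDNA6.2-GW/EmGFP-miR-DUSP5, from which an artificial microRNA directed at DUSP5 is made. Both vectors carry the reporter EmGFP, so both populations had undergone transfection. The time after transfection, the share of transfected cells and the use of drugs or irradiation are not given in the sources used here, and no DNA-damaging agent is named in the sample labels. With a single array on each side, no difference has a replicate check, no p-value was computed, and an effect of the knock-down cannot be told apart from another difference between the cultures. In RNA from a whole culture, fewer cells with a transcript and less of it per cell cannot be told apart either.

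Of the 44 genes, BRCA2, FANCA and BTG2 had no probe set with that symbol alone and were not analysed here. The other 41 genes had 74 probe sets. Each gene was represented by its brightest probe set over both arrays, and 34 genes reached a mean signal intensity of 200 or more, called measured in the following. For a gene, the log2 ratio is that of the signal on the knock-down array over the signal on the control array. The error given after ± is the standard deviation (SD) of the log2 ratio among probe sets that target 1 gene and have similar signals. It ranged from 0.41 at mean signals of 200 to 500 to 0.26 above 3000 and covers probe error within these 2 arrays, not the spread between cultures. The median signals of the control and knock-down arrays were 161 and 164. DUSP5, the target of the knock-down, had signals of 628 and 368 at its only probe set, a log2 ratio of -0.77 ± 0.41. It was the 786th lowest of all measured genes. GAPDH, the housekeeping control of the authors' RT-PCR, had signals of 14027 and 30490 (1.12). Its other probe sets gave 0.98 and 0.94. All 6 listed markers of Hodgkin cells were measured, among them TNFRSF8, which encodes CD30. None of 5 T cell and none of 5 myeloid markers reached a mean signal of 200, and of 6 B cell markers only PAX5 did.

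Cells answer DNA damage in a chain of steps. The kinases ATM and ATR sense breaks and stalled replication and pass the signal to CHEK1 and CHEK2. Double-strand breaks are then repaired by homologous recombination with the sister chromatid or by direct end joining. Damaged bases and bulky lesions are removed by base and nucleotide excision repair, and replication errors by mismatch repair. The transcription factor p53, which is stabilised by the same kinases, induces genes for cell cycle arrest, for repair and for its own control.

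As a whole, the set differed little from the other genes on these arrays. Of the 34 measured members, 5 had a signal that was higher by 1.5-fold or more after knock-down (14.7%), against 15.6% of all 6301 measured genes. Another 5 were lower by as much (14.7%), against 19.0% of all measured genes. Both shares lie near the background. With all log2 ratios centred on their median, 4 members were higher and 7 were lower, against 10.95% and 24.1% of all measured genes. The median log2 ratio was 0.18 for the members and 0.01 for all measured genes. The log2 ratio was larger than 1 SD between probe sets for 19 members (55.9%), as for 55.7% of all measured genes, and larger than 2 SD for 8 members (23.5%), as for 26.1%. By role, the medians differed in sign, which was not tested. Of the 28 measured genes of damage signalling and repair, 5 were higher, 2 were lower and the median was 0.22. Of the 6 measured p53 response genes, none was higher, 3 were lower and the median was -0.48. GADD45A stood farthest out.

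**Figure D1:**
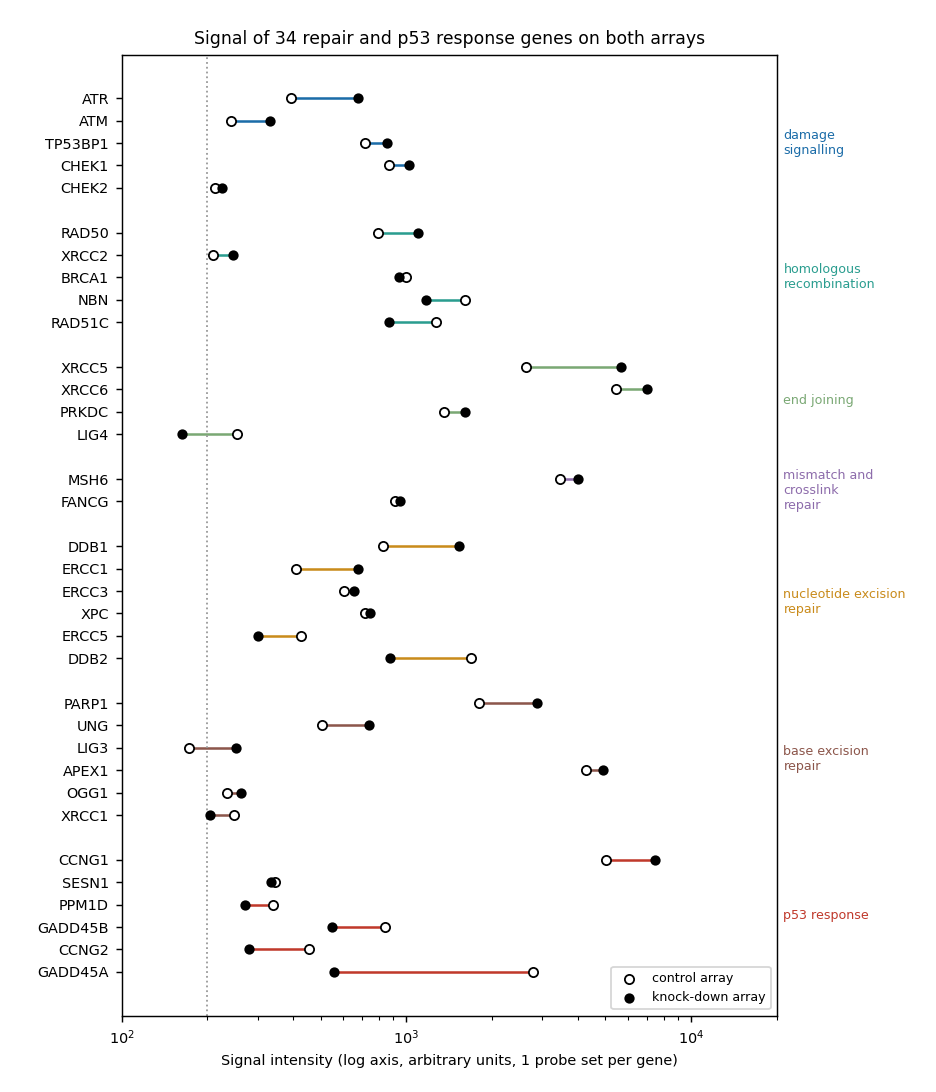
Signal intensity (log axis) of the 34 measured members before (open circles, control array) and after knock-down (filled circles), 1 probe set per gene, ordered by role and log2 ratio. The dotted line marks a signal of 200. The longest line is that of GADD45A, from 2794 down to 558, and all 5 damage signalling genes have the filled circle to the right.

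All 5 genes of damage signalling had a higher signal on the knock-down array at the probe set used, and 1 of them passed 1.5-fold. After centring on the median CHEK2 turned to -0.04. With the probe sets of a gene averaged, the median log2 ratio of the 5 was 0.08, against 0.25 at the probe set used. The signal of ATR, the kinase that responds to stalled replication forks, was 394 in control cells and 675 after knock-down, with a log2 ratio of 0.78 ± 0.36. Its dimmer probe set, with signals of 102 and 208, went the same way (1.02). ATR ranked as the 568th highest of the 6301 measured genes. For ATM, the kinase that responds to double-strand breaks, the signal was 242 and 332, a log2 ratio of 0.46 ± 0.41. Its dimmer probe sets, with mean signals under 200, gave 0.09 and 0.90. ATM and ATR thus differed from each other by less than the error of their difference (0.32, combined SD 0.55).

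The effector kinases and the chromatin adaptor moved less. CHEK1, the kinase downstream of ATR that acts in S phase and at the G2 checkpoint, gave 872 and 1021, a log2 ratio of 0.23 ± 0.36. Its dimmer probe set gave -0.16. CHEK2, the kinase downstream of ATM, gave 212 and 225 (0.08 ± 0.41), and TP53BP1, which binds chromatin at breaks and favours end joining, gave 717 and 855 (0.25 ± 0.36). The other probe set of TP53BP1 was lower, with 416 and 317 and a log2 ratio of -0.39. For these genes the log2 ratio lay within 1 SD of 0 at the probe set used.

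Promoter sequences are shown for the 2 highest and 2 lowest measured members that have an entry in the RefSeq promoter table, and whose probe sets go the same way: ATR, DDB1, DDB2 and CCNG2. XRCC5 and GADD45A have no entry. Each sequence holds the 250 bases before the RefSeq start of the gene (assembly GRCh38.p14), written 5′ to 3′ along the strand of the gene. On both strands, the letters of the GC box (GGGCGG), of the CCAAT box (CCAAT), of an E2F site (TTTCGCGC or TTTGGCGC), of the cyclic AMP response element (TGACGTCA), of the ATF4 and C/EBP element (TGATGNAA) and of a FOXO site (TGTTTAC) were searched, as were the NRF1 motif and the p53 response element, given here by name. Capitals mark the matches. The promoter of ATR is chr3:142578734-142578983 on the minus strand. It has 2 GC boxes in the opposite orientation, 187 to 182 and 174 to 169 bases before the start.
ATR: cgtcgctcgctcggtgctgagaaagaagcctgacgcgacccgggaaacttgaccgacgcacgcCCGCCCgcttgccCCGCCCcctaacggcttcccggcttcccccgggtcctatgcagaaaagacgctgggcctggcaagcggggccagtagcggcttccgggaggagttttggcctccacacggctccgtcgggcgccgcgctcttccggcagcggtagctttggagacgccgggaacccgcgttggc

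In homologous recombination none of 5 measured genes passed 1.5-fold at the probe set used, and the median log2 ratio was -0.07. The lowest were RAD51C and NBN. RAD51C, which acts in strand exchange, had signals of 1274 and 872 (-0.55 ± 0.30), and its dimmer probe set had 926 and 536 (-0.79). NBN, the subunit of the MRE11-RAD50-NBN complex that recruits ATM to breaks, had signals of 1603 and 1174 (-0.45 ± 0.30). Its other 3 probe sets gave -0.40, -0.72 and -0.67, so that all 4 were lower, 2 of them by at least 1.5-fold. NBN and RAD51C are the members of this group whose probe sets agreed in a difference larger than 1 SD.

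RAD50, the long coiled-coil subunit of the same complex, went the other way at its brighter probe set, with signals of 794 and 1097 (0.47 ± 0.36), and had -0.14 at its other. At the brighter probe sets, RAD50 and NBN differed by 0.92 (combined SD 0.47). MRE11, the nuclease of the complex and no member of the set, had signals of 220 and 387 and a log2 ratio of 0.81. The 3 subunits of the complex therefore did not share a direction on these arrays. BRCA1, which promotes the resection of broken ends, had 993 and 945 (-0.07 ± 0.36), with -0.21 at its other probe set. XRCC2, which also acts in strand exchange, had 209 and 245 (0.23 ± 0.41). XRCC3 was under the signal minimum, with 197 and 140.

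In end joining XRCC5 was past 1.5-fold on the higher side at its brighter probe set and LIG4 on the lower side, while XRCC6 and PRKDC lay between. XRCC5, which encodes Ku80, had the highest log2 ratio of all measured members. Its brighter probe set had signals of 2626 and 5666, a log2 ratio of 1.11 ± 0.26 and the 199th highest of all measured genes. The other probe set of XRCC5, of similar brightness, gave 3534 and 3607, a log2 ratio of 0.03. The value for XRCC5 thus depends on the probe set, and their mean was 0.57, short of 1.5-fold. XRCC6, which encodes its partner Ku70, had 5459 and 6982 (0.36 ± 0.26). The log2 ratio of XRCC6 was 0.11 after quantile normalization and 0.12 after subtraction of a lowess fit.

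PRKDC, the catalytic subunit of the DNA-dependent protein kinase that Ku recruits, had 1355 and 1612 at the brighter probe set (0.25 ± 0.30) and 1491 and 1208 at the next (-0.30), so that no direction can be given. LIG4, the ligase that seals the ends, had 254 and 163, a log2 ratio of -0.64 ± 0.41. With a mean signal of 208 it lay just above the minimum of 200, which it reached only through the control array. After 32 was added to each signal its ratio was -0.55. XRCC4, the partner of LIG4, was under the minimum at all 4 probe sets, with signals of 101 and 96.2 at the brightest. Over both routes of double-strand break repair, 1 of 9 measured genes was higher and 1 was lower, and the median was 0.23. This median was -0.22 over the 4 genes that remained without the _s_at and _x_at probe sets, a type that may detect more than 1 transcript.

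**Figure D2:**
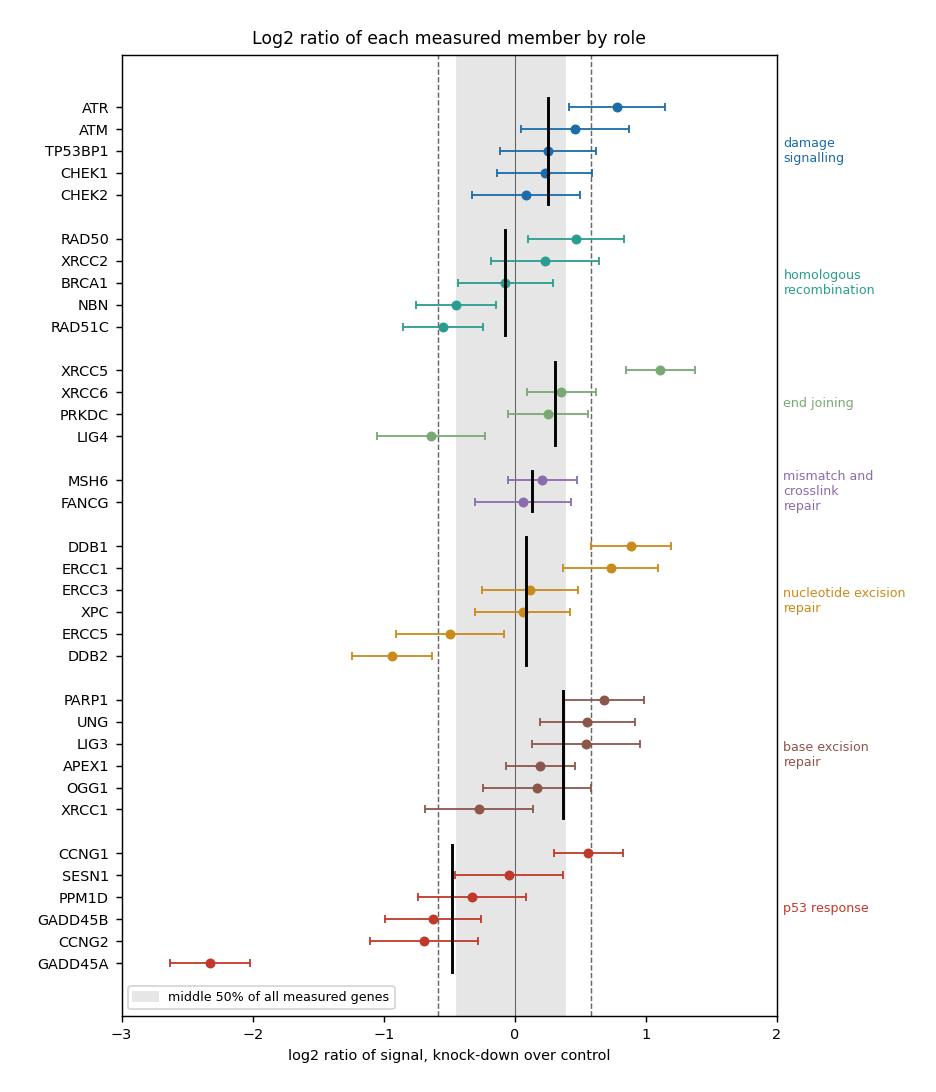
Log2 ratio of signal (knock-down over control) of the 34 measured members by role. Bars are ± 1 SD among probe sets of like signal, black lines are the median of each role, dashed lines mark 1.5-fold and the grey area holds the middle 50% of all measured genes (-0.44 to 0.38). GADD45A lies at -2.32, and the medians lie between -0.48 (p53 response) and 0.37 (base excision repair).

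Among the measured members of nucleotide excision repair the largest differences were those of the damage sensor. DDB1 and DDB2 together form the UV-damaged DNA-binding complex, in which DDB2 contacts the lesion and DDB1 is the adaptor of a CUL4 ubiquitin ligase. DDB1 had signals of 826 and 1525, a log2 ratio of 0.88 ± 0.30. DDB2 had 1682 and 879, a log2 ratio of -0.94 ± 0.30. The partners thus lay on opposite sides and differed by 1.82 (combined SD 0.43). DDB1 was the 391st highest and DDB2 the 531st lowest of all measured genes. Both have 1 probe set on the array, so neither value has a second probe set beside it. Both kept their side past 1.5-fold in all 8 alternatives for the ratio, though neither was past 2-fold. Alternatives that change only the filter or the choice of probe sets could not move these ratios.

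The promoters of this pair are among those chosen by the rule given above. That of DDB1 is chr11:61333106-61333355 on the minus strand, and that of DDB2 is chr11:47214204-47214453 on the plus strand. In these windows DDB1 has 1 GC box and no CCAAT box, whereas DDB2 has 3 CCAAT boxes, the nearest 42 to 38 bases before the start, and no GC box. The windows hold 75.2% and 55.6% G and C.
DDB1: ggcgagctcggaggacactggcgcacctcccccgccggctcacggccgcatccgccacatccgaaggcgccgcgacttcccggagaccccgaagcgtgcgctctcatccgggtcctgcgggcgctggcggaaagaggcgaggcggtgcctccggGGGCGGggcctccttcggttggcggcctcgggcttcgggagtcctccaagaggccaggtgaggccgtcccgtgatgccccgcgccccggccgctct
DDB2: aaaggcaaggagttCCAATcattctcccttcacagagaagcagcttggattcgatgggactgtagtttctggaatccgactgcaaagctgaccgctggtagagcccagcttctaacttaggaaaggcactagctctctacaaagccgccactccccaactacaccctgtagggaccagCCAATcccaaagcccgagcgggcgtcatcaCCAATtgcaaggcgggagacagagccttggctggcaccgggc

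The other measured members of the pathway lay between these partners. ERCC1, which forms with ERCC4 the nuclease that cuts 5′ of the lesion, had 408 and 678 (0.73 ± 0.36), and 315 and 406 at its other probe set (0.37). ERCC4 itself was under the minimum, with 175 and 84.0. ERCC5, the nuclease that cuts on the 3′ side, had 426 and 302 (-0.50 ± 0.41). The nucleases on either side of the lesion thus lay on different sides of 0 at their measured subunits.

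XPC, which finds lesions across the genome and is, like DDB2, also a known target of p53, had 718 and 748 (0.06 ± 0.36). ERCC3, a helicase of the transcription factor TFIIH, had 602 and 652 (0.12 ± 0.36). The other helicase, ERCC2, was under the minimum, with 63.3 and 204. Of the 6 measured genes of this pathway, 2 were higher and 1 was lower at a median log2 ratio of 0.09.

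In base excision repair 5 of 6 measured genes had a higher signal, with a median log2 ratio of 0.37. PARP1, which binds single-strand breaks and builds chains of poly(ADP-ribose), was the only one of these past 1.5-fold, with 1802 and 2885 (0.68 ± 0.30). After centring on the median it fell short at 0.55. UNG, the glycosylase that removes uracil from DNA, had 504 and 740 (0.55 ± 0.36). LIG3, the ligase that works with XRCC1, had 173 and 252 (0.54 ± 0.41) at the probe set used and -0.38 at a dimmer one. The probe set used had a mean signal of 212, just above the minimum of 200, which it reached only through the knock-down array. Both UNG and LIG3 lay just short of 1.5-fold, and UNG passed it after quantile normalization (0.64) and after subtraction of the lowess fit (0.62).

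The scaffold protein XRCC1 was the only one of these 6 members with a lower signal, 247 and 205 (-0.27 ± 0.41). APEX1, the endonuclease that cuts at sites without a base, had 4273 and 4889 (0.19 ± 0.26). OGG1, the glycosylase for oxidised guanine, had 234 and 263 (0.17 ± 0.41). XRCC1 and LIG3 differed by 0.81 at a combined SD of 0.58. In mismatch and crosslink repair, MSH6, the subunit that recognises single mismatches, had 3461 and 3998 (0.21 ± 0.26), with -0.06 at its other bright probe set. FANCG, a subunit of the Fanconi anaemia core complex, had 912 and 951 (0.06 ± 0.36). Taken over excision, mismatch and crosslink repair, 3 of 14 measured genes were higher and 1 was lower. Their median was 0.18.

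Several of these genes are known to be transcribed mainly in proliferating cells, among them CHEK1, BRCA1, UNG and MSH6. Of 15 listed proliferation genes, all measured, 5 were past 1.5-fold on the higher side at the probe set used (33.3%, against 15.6% of all measured genes). At these probe sets 0 were past it on the lower side (against 19.0%), and the median log2 ratio of the 15 was 0.16. The 5 included RRM2 (1.02, and 0.57 at its other probe set), a subunit of ribonucleotide reductase, and the cyclin gene CCNA2 (0.96, and -0.04 at its other probe set). The others were the replicative helicase subunits MCM7 (0.84) and MCM3 (0.80), and the thymidylate synthase gene TYMS (0.59). The replication clamp PCNA (0.11), MCM2 (0.16) of the same helicase and MKI67 (0.02) lay closer to 0, and E2F1 (-0.21) was the lowest at the probe set used. CDK1 gave -0.16 at its brightest probe set and -0.35 and -0.59 at its others, the last past 1.5-fold. The part of proliferation in the ratios of the repair genes was not tested.

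Among the p53 response genes 5 of 6 measured members had a lower signal on the knock-down array, though SESN1 lay so close to 0 that it turned to 0.03 after quantile normalization. GADD45A, a small protein that binds PCNA and cyclin-dependent kinase complexes and is induced by stress and growth arrest, had a signal of 2794 in control cells and 558 after knock-down. This is 20.0% of control, with a log2 ratio of -2.32 ± 0.30. It was the 24th lowest of all 6301 measured genes and the only measured member at least 2-fold lower. GADD45A has 1 probe set, and its ratio was between -2.45 and -2.26 in the 8 alternatives. Those that change only the filter or the choice of probe sets could not move it.

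GADD45B, its paralog, was also lower but by less. Its brightest probe set gave 843 and 547 (-0.62 ± 0.36), and its other measured probe sets gave -0.24 and -0.29, none of these 2 past 1.5-fold. GADD45B was no longer past 1.5-fold after quantile normalization (-0.54), after subtraction of the lowess fit (-0.56) or with its probe sets averaged (-0.39), which leaves 2 of the 6 measured p53 response members lower by that much. The dimmest of its probe sets, with signals of 14.6 and 89.9, was far under the minimum. The paralogs differed by 1.70 (combined SD 0.47).

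The cyclin G genes lay on opposite sides. CCNG2, an atypical cyclin linked to arrest and also known as a FOXO target, as is GADD45A, had 455 and 281 at its brightest probe set (-0.70 ± 0.41). Its other probe sets gave -0.56 and -1.03, so that all 3 were lower. CCNG1, which recruits a phosphatase to MDM2, had 5041 and 7438 (0.56 ± 0.26), just short of 1.5-fold. It was farther from 1.5-fold after quantile normalization (0.35) and after subtraction of the lowess fit (0.33). The cyclins differed by 1.26 (combined SD 0.49). The promoter of CCNG2, chr4:77156957-77157206 on the plus strand, is printed because CCNG2 was, after GADD45A and DDB2, the lowest measured member. It has 4 GC boxes, 1 along the strand of the gene and 3 opposite, and none of the other motifs.
CCNG2: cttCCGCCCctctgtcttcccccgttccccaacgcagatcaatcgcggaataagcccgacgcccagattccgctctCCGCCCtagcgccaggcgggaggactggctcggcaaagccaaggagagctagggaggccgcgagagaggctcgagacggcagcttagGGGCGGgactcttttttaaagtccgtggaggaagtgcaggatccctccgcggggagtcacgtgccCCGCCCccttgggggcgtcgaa

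PPM1D, the phosphatase that switches the damage response off, had 340 and 271 (-0.33 ± 0.41), and SESN1, a sestrin that restrains TOR signalling, had 345 and 334 (-0.04 ± 0.41). The genes at the core of the p53 circuit could not be read. CDKN1A, which encodes the inhibitor p21, was under the minimum with signals of 88.0 and 52.6. MDM2, the ubiquitin ligase of p53, had 160 and 195 at the brightest of 5 probe sets, all under the minimum. MDM4, its partner, had 141 and 109. At these signals the SD between probe sets was 0.73 or more, which is larger than a 1.5-fold difference.

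**Figure D3:**
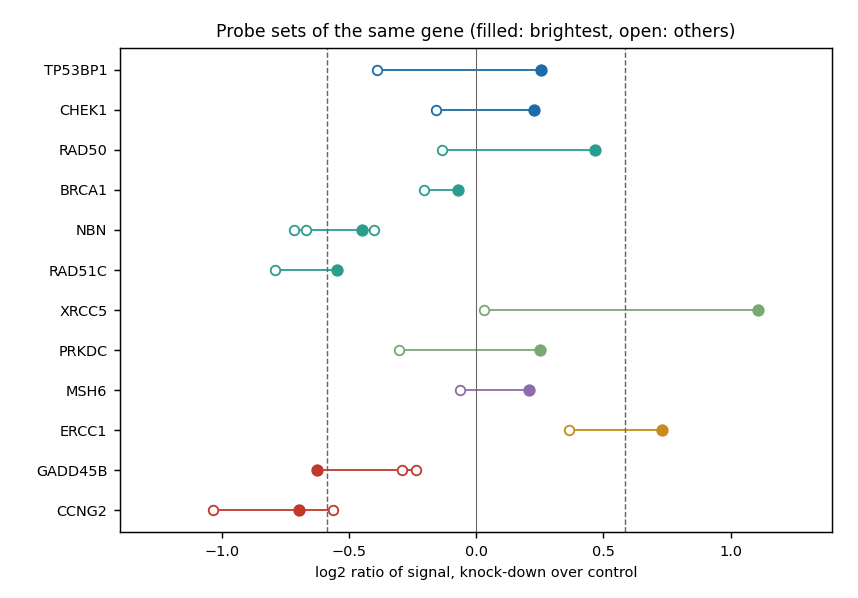
Log2 ratio (knock-down over control) of every probe set with a mean signal of at least 200 for the 12 members that have several. Filled circles are the brightest probe set and open circles the others, with dashed lines at 1.5-fold. The probe sets of NBN, RAD51C and CCNG2 all lie on the lower side, whereas those of PRKDC, RAD50 and TP53BP1 lie on both sides of 0.

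The agreement between probe sets limits what can be said of single genes. Of the 12 members with several probe sets at a mean signal of at least 200, 7 had all of them on the same side (58.3%), against 68.2% of 1897 genes on the whole array. The 7 were BRCA1, RAD51C, NBN, XRCC5, ERCC1, GADD45B and CCNG2. The 5 with probe sets on both sides were CHEK1, TP53BP1, RAD50, PRKDC and MSH6, and none of them passed 1.5-fold.

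Promoter windows were found for 30 of the 34 measured members. A GC box occurred in 21 of them (70.0%), against 42.6% of all 35116 windows of the same length, and a CCAAT box in 13 (43.3%), against 11240 of the 35116. The members' windows were also richer in G and C, with a median of 64.8% against 58.0%. No E2F, FOXO or ATF4 and C/EBP match and no p53 response element was found in the 30 windows. In all windows these occurred in 0.97%, 2.98%, 3.14% and 0.03%. With shares this low, a lack of matches in 30 windows does not set the members apart, and sites outside the windows were not searched. The cyclic AMP response element occurred in XRCC2 and PPM1D (1.65% of all windows), and the NRF1 motif in ATM, XRCC2, XRCC1 and LIG3 (5.07% of all windows). The GC box was present in members that were higher, such as ATR, DDB1 and PARP1, and in CCNG2, which was lower.

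A wider list held 104 further genes of the same pathways. Of these, 84 had a probe set and 72 were measured. Of the 72, 12 were higher by 1.5-fold or more (16.7%, against 15.6% of all measured genes). Another 11 were lower by as much (15.3%, against 19.0%). The median log2 ratio was 0.10, against 0.01 for all measured genes. The counts by role that follow have the same background. The gene for p53 itself was not analysed here. In damage signalling 1 of 12 further genes was higher, the phosphatase gene CDC25C (0.74), and 3 were lower. The lowest was RAD17, which loads the checkpoint clamp, with signals of 2531 and 1184 (-1.10) and with -0.94 and -0.57 at its other probe sets. RAD1, a subunit of that clamp, gave -1.01, -1.16 and -0.65. RAD17 and RAD1 were lower at all 6 probe sets, while RAD9A, another subunit of the clamp, had signals of 466 and 653 (0.49). The 12 further genes had a median of -0.12, so that the higher median of the listed damage signalling members was not found in the wider list.

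In homologous recombination 3 of 13 were higher and 2 were lower, from RAD54L (177 and 597, 1.75), a DNA translocase, to RAD51B (383 and 194, -0.98). RAD54L was under 200 on the control array and RAD51B on the knock-down array, so each reached the minimum only through the other array. In end joining none of 3 passed 1.5-fold, with DCLRE1C (0.54), the nuclease Artemis, at the top and APTX (0.40), which removes AMP from stalled ligations, at the bottom. The other probe set of DCLRE1C gave -0.16. In mismatch and crosslink repair 5 of 10 were higher and 0 were lower, from MSH3 (0.83, and -0.42 at its other probe set) to the exonuclease gene EXO1 (-0.48). The 5 also included FANCI (0.67), FANCL (0.59), FANCF (164 and 272, 0.73) and MLH3 (161 and 269, 0.75). FANCF and MLH3 reached the minimum of 200 only through the knock-down array. The other probe sets of MLH3, under the minimum, gave -0.16 and 0.34.

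In nucleotide excision repair 1 of 12 was higher, the XPC partner CETN2 (0.78), and 2 were lower. These were CDK7, with signals of 3604 and 1059 (-1.77), and MNAT1, with 1345 and 557 (-1.27), which with cyclin H form the kinase module of TFIIH. The cyclin H gene CCNH had 1875 and 2012 (0.10), and ERCC3 of the TFIIH core had 0.12. In base excision repair 1 of 11 was higher and 1 was lower. The glycosylase gene NTHL1 had 156 and 442, which is 2.83-fold higher, but it reached the minimum of 200 only through the knock-down array. PARG, which degrades the chains that PARP1 builds, had 1510 and 326 (-2.21) at its only probe set. PARP1 and PARG, which act against each other, thus differed by 2.89 (combined SD 0.47).

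Among 13 further p53 response genes 1 was higher and 3 were lower. SFN, which encodes 14-3-3 sigma, had 615 and 1491 (1.28) and 1.04 at its next probe set. TNFRSF10B, a death receptor, had 1094 and 473 (-1.21), with 0.16 and -0.76 at its other probe sets. The death receptor gene FAS had 7947 and 4501 (-0.82) and was lower at all 4 probe sets, and PERP had 6837 and 4054 (-0.75). BAX had 288 and 430 (0.58). These further targets had a median of -0.02, so that the lower median of the 6 listed p53 response members was not found in the wider list.

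**Figure D4:**
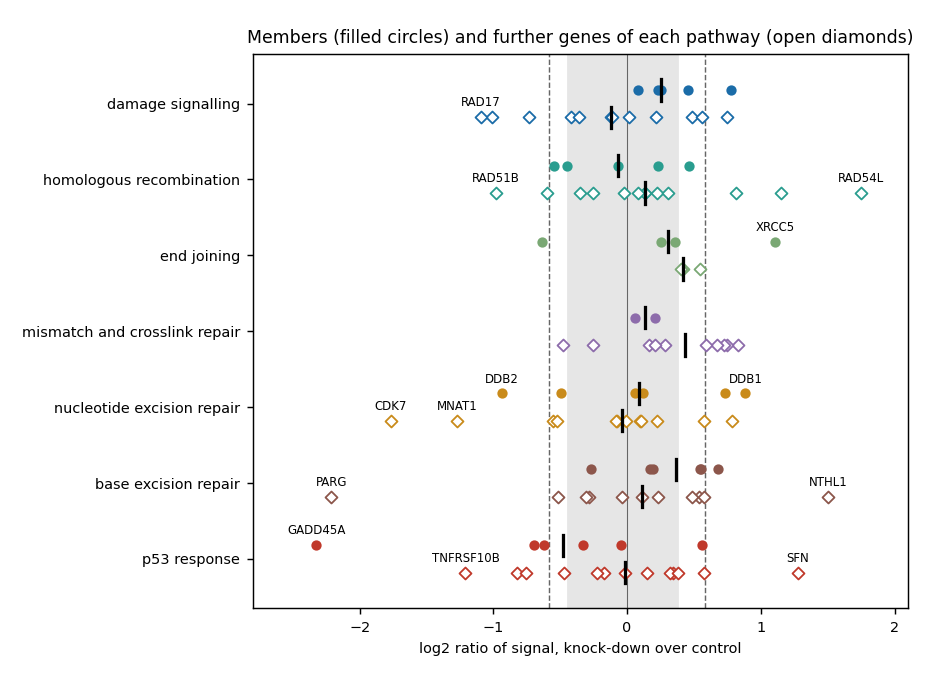
Log2 ratio after knock-down of DUSP5, relative to control, of the measured members (filled circles) and of further genes of the same pathways (open diamonds), by role. Black lines are medians, dashed lines mark 1.5-fold and the grey area holds the middle 50% of all measured genes. PARG (-2.21), CDK7 (-1.77) and GADD45A (-2.32) lie farthest to the left and RAD54L (1.75) farthest to the right.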

How the data were processed

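The authors hybridised RNA from L-428 cells to 1 Affymetrix HG_133A array per condition and computed signals in Expression Console by the MicroarraySuite 5.0 method (MAS5). The deposited intensities are linear and were scaled by the authors to a target intensity of 500 on each array. No detection calls were used, so a mean signal of 200 stood in for detection. Probe sets were named from the platform annotation of 2016. Of 22215 probe sets other than the 68 controls, 19065 had 1 symbol, and 19053 of these matched a RefSeq gene of GRCh38.p14 under an unchanged symbol.

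Log2 ratios were computed over all probe sets without further normalization, and counts and medians were taken over all measured genes and over the members. With 1 array per condition no test was made, and the number of arrays limits the precision. The SD between probe sets came from the differences within pairs of probe sets of 1 gene, in bands of mean signal. A combined SD is the root of the summed squares. Members, lists and rules were chosen with earlier results of these data known. The named genes are all members and, for each role, the highest and lowest further gene. RAD1, RAD9A, MRE11, MNAT1, CCNH, FAS, PERP, BAX, FANCF, FANCI, FANCL, MLH3, GAPDH and the proliferation genes were named after their values were seen. So were the pairs of genes whose difference is given. Alternatives were quantile normalization, centring on the median, subtraction of a lowess fit (span 0.3), a pseudocount of 32, minimum signals of 0 or 500, averaging a gene's probe sets of 200 or more, omission of the _s_at and _x_at types, and 2-fold in place of 1.5-fold. The steps were tested on simulated data. Python 3.11.15, numpy 2.4.6, pandas 2.3.3, statsmodels 0.14.6 and matplotlib 3.10.9 were used.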

Additional observations from a re-analysis of the deposited data

How the results depend on the processing

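The number of members at least 1.5-fold higher, 5 as reported, was 3 when a gene's probe sets were averaged, 2 without the types _s_at and _x_at and 1 at 2-fold. The number at least 1.5-fold lower, also 5, was 3 at a mean signal of at least 500, 3 without these types and 1 at 2-fold. For the further genes, 4 in place of 12 were higher at a mean signal of at least 500 and also 4 at 2-fold, and in place of 11, 5 were lower without these types and 6 at 2-fold. The smaller counts at 2-fold, at the stricter minimum and without these types follow at least in part from the construction, which leaves fewer genes or sets a higher bar. The median of double-strand break repair turned to -0.22 without these types. The 4 genes left were RAD50 (-0.14) and PRKDC (-0.30), both read at a dimmer probe set, LIG4 (-0.64) and XRCC6 (0.36). With no filter, which adds XRCC3 and XRCC4, the median was -0.06. With averaged probe sets it was -0.03, the value of PRKDC. The other 65 of 76 counts and medians stayed within 1.5 times the count or within the SD between probe sets, and the p53 response median stayed between -0.62 and -0.36. Centring moved the median of all measured genes from 0.01 to -0.12, and 24.1% of them were then lower by 1.5-fold or more. Of the 10 members past 1.5-fold, ATR, DDB1, DDB2 and GADD45A stayed past it in every alternative that could be computed for them, and none of the 10 changed sign. For these named genes the changes of filter and of probe sets gave the same ratio again by construction. Only the changes of normalization and the pseudocount could move it. No paired analysis was possible because there is a single array on each side, and leaving out an array was not possible for the same reason.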
